A study of Yarrowia lipolytica with 35 samples.

Results

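Yarrowia lipolytica is a yeast used to make lipids, citrate and sugar alcohols, and it can grow as round cells or as filaments. The 47 genes described here had less RNA at pH 3.5 than at pH 5.5 after 32 h in bioreactors, in both strains and on both carbon sources. They were chosen by that difference. Of 6448 coding tags (the locus names of protein-coding genes), 47 had a pH 3.5 minus pH 5.5 difference of -0.8 or less in each of the 4 strain and carbon pairs. The difference is between group means of the deposited log2(FPKM + 1) values, where FPKM is a read abundance scaled to gene length and library size. By the mirrored limit, +0.8 or more in all 4 pairs, 40 coding tags were higher at pH 3.5. The label of repression applies to 32 h only, since pH 3.5 was not sampled in the growth phase.

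Fungi adjust gene expression to the acidity around them largely through the Rim101 pathway, called PacC in filamentous fungi. Its end point is a zinc-finger transcription factor that is activated by proteolytic cleavage at neutral to alkaline pH, and that then switches genes of alkaline growth on and genes of acid growth off. In Y. lipolytica the external pH also bears on the change between yeast and filamentous forms, in which the homeobox protein Hoy1 takes part. The genes of both proteins, RIM101 (YALI0B13640g) and HOY1 (YALI0A18469g), were among the 47. These 2 were the only ones to which the deposited tables give a name, so that the other 45 are called by their locus tags and no function is given for them. No other gene of the pH-sensing pathway carried a name in the tables, and the remaining steps of the pathway were not analysed here.

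RNA was sequenced from biomass of strains DSM-21175 and DSM-3286, each grown on glycerol or on glucose as the only carbon source. Each strain and carbon source was sampled at 32 h, in nitrogen-limited stationary phase, at pH 3.5 and at pH 5.5, and once during growth, at pH 5.5, which was 8 h into glycerol cultures and 12 h into glucose cultures. Each of the 12 groups had 3 libraries, except DSM-3286 on glucose at 32 h and pH 5.5, which had 2, giving 35. The submitters call the replicates biological, and p-values measure the spread between these bioreactor samples. Since whole biomass was sampled, fewer cells transcribing a gene and less RNA per cell cannot be told apart. Totals ran from 6.7 to 25.7 M counted reads per library, with a median of 12.55 M (M, mega).

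Of the DSM-21175 libraries 5 stood apart from their replicates, namely glycerol 32 h pH 3.5 replicate 3, glycerol 32 h pH 5.5 replicate 3, glycerol growth replicate 2, glucose 32 h pH 5.5 replicate 3 and glucose growth replicate 3. In these, 2.2 to 5.5% of coding tags differed by 1 or more on the log2 scale from the mean of the other replicates, against 0.03 to 1.86% in the other 30 libraries. The 47 genes took part in this: 11 of them were at least 1 lower and 3 at least 1 higher in glucose 32 h pH 5.5 replicate 3. In glycerol 32 h pH 5.5 replicate 3, 10 were lower and 4 higher by as much. Their part in the results was not tested beyond leaving these libraries out. Without them the rule found 45 genes, of which 42 are among the 47.

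Together the 47 genes took 0.137 to 0.406% of the reads of a library at 32 h and pH 3.5, against 1.22 to 2.41% at 32 h and pH 5.5. In growth phase at pH 5.5 they took 0.177 to 1.32%. The pH 3.5 and pH 5.5 libraries of 32 h did not overlap in this share, and the growth libraries lay across the gap between them. The gap follows from the choice of the genes, which used these 32 h libraries. Reads on noncoding tags moved with pH as well, at 0.0195 to 0.0647% at pH 3.5 and 0.0509 to 0.215% at pH 5.5, and their part in the result was not tested.

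**Figure D1:**
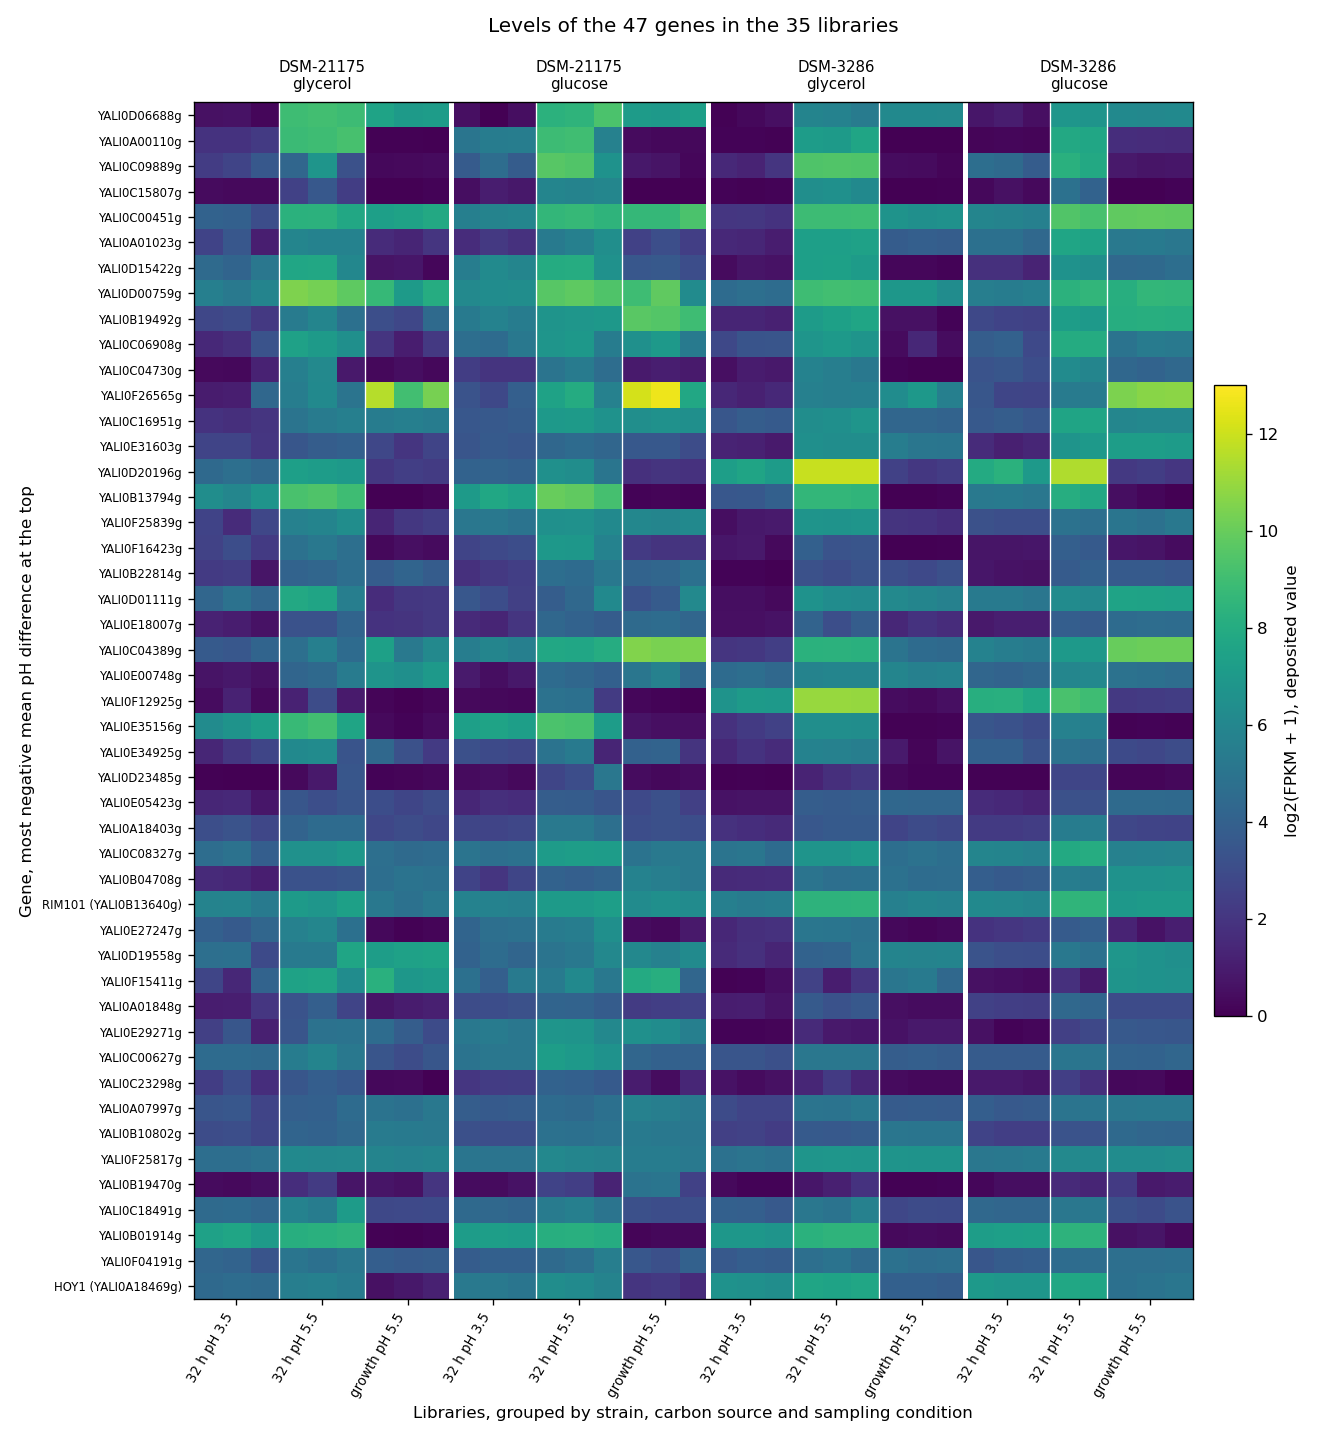
Deposited log2(FPKM + 1) value of each of the 47 genes (rows, most negative mean pH difference at the top) in each of the 35 libraries (columns, in blocks by strain and carbon source, divided into 32 h pH 3.5, 32 h pH 5.5 and growth pH 5.5). Within each block the 32 h pH 3.5 columns are on average darker (lower) than the 32 h pH 5.5 columns, while the growth columns are dark for some genes and bright for others.

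The pH difference was the measure that chose the genes and is given as a description. Its median over the 47 was -2.11 in DSM-21175 on glycerol, -1.77 in DSM-21175 on glucose, -3.13 in DSM-3286 on glycerol and -2.35 in DSM-3286 on glucose, while the median over all coding tags lay between -0.01 and 0.05 in each pair. DSM-3286 on glycerol held the most negative difference of 27 genes, against 6 in DSM-3286 on glucose and 7 in each DSM-21175 pair. The mean of the 4 differences was -4 or below for 6 genes, between -4 and -2 for 26 and above -2 for 15. With the count-based fit (edgeR's quasi-likelihood test, Benjamini-Hochberg adjusted p under 0.05) all 47 were lower at pH 3.5, where 34.3% of all 6537 genes tested were lower and 34.2% higher. Every pH 3.5 replicate lay below every pH 5.5 replicate in all 4 pairs for 40 of the 47, and for 6.9% of all coding tags. Both counts follow from the choice of the genes.

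The 7 genes with overlapping replicates in at least 1 pair were YALI0C04730g, YALI0C09889g, YALI0E29271g, YALI0E34925g, YALI0E35156g, YALI0F12925g and YALI0F15411g. YALI0C04730g is an example on glycerol in DSM-21175, with 0.35, 0.28 and 1.25 at pH 3.5 and 5.62, 6.13 and 0.89 at pH 5.5. There the overlap comes from replicate 3 at both pH values, which are among the 5 libraries named above.

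RIM101 was moderate in level and tight between replicates. On glycerol in DSM-21175 it had log2(FPKM + 1) values of 5.80, 5.88 and 5.36 at pH 3.5, against 7.09, 6.82 and 7.37 at pH 5.5. In DSM-3286 on glycerol it had 5.60, 5.41 and 5.51 at pH 3.5, against 8.41, 8.40 and 8.44 at pH 5.5. On glycerol the pH 3.5 values of the strains overlapped, and the pH 5.5 values were all lower in DSM-21175 than in DSM-3286.

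On glucose RIM101 had 5.76, 5.76 and 5.66 at pH 3.5 and 7.06, 7.10 and 7.31 at pH 5.5 in DSM-21175, and 6.17, 6.09 and 5.92 at pH 3.5 and 8.49 and 8.48 at pH 5.5 in DSM-3286. Its 4 differences were thus -1.41 and -1.43 in DSM-21175, on glycerol and glucose, and -2.91 and -2.42 in DSM-3286. Growth cultures were also held at pH 5.5, and their RIM101 level was nearer to the 32 h pH 3.5 level in all 4 pairs. The growth values were 5.18, 4.85 and 5.20 on glycerol and 6.27, 6.49 and 6.26 on glucose in DSM-21175. In DSM-3286 they were 5.64, 5.84 and 5.75 on glycerol and 6.95, 7.08 and 7.08 on glucose.

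HOY1 had the smallest mean difference of the 47, -0.97, and nearly the same difference in every pair. On glycerol it had 4.44, 4.61 and 4.49 at pH 3.5 and 5.55, 5.64 and 5.43 at pH 5.5 in DSM-21175, and 6.65, 6.50 and 6.36 at pH 3.5 and 7.62, 7.54 and 7.67 at pH 5.5 in DSM-3286. On glucose it had 5.26, 5.25 and 5.07 at pH 3.5 and 6.38, 6.21 and 5.81 at pH 5.5 in DSM-21175, and 6.97, 6.81 and 6.85 at pH 3.5 and 7.75 and 7.62 at pH 5.5 in DSM-3286. The replicates did not overlap in any pair. Growth levels were lower than both 32 h levels throughout, down to 0.58, 0.86 and 1.17 in DSM-21175 on glycerol, and 3.99, 3.98 and 3.85 in DSM-3286 on glycerol.

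**Figure D2:**
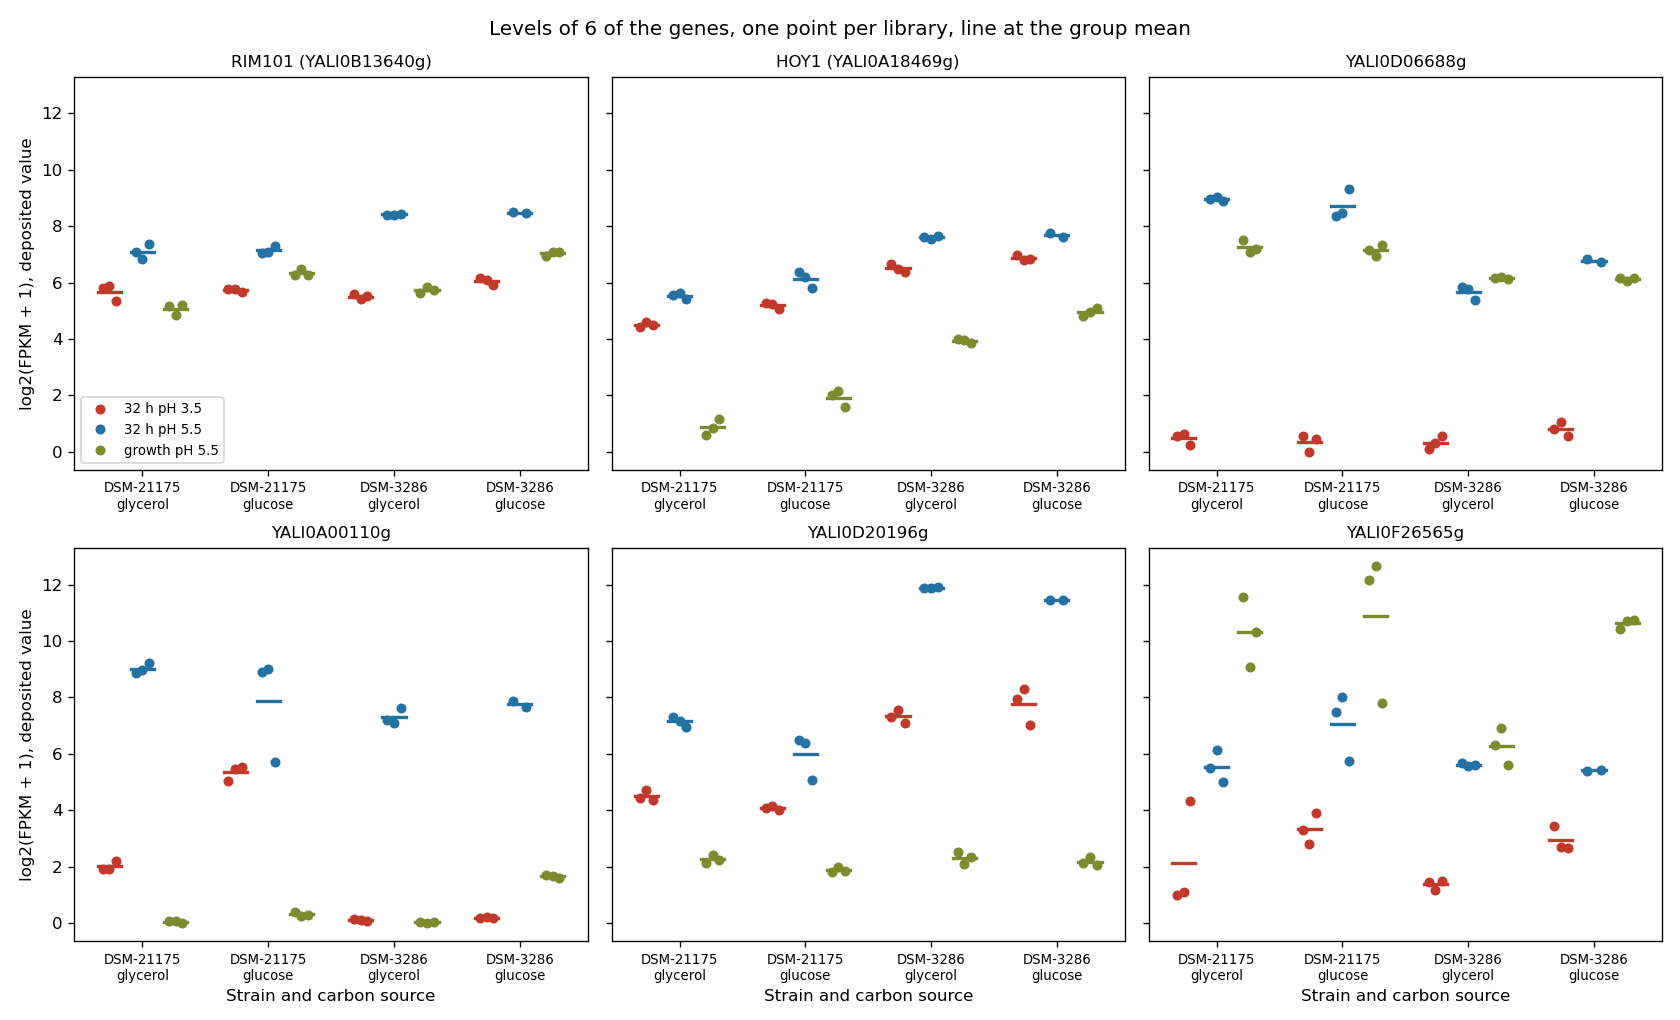
Deposited log2(FPKM + 1) values of 6 of the genes, 1 point per library and a line at each group mean, by strain and carbon source, for 32 h pH 3.5 (red), 32 h pH 5.5 (blue) and growth pH 5.5 (green). YALI0D06688g is near 0 at 32 h pH 3.5 and above 5 elsewhere, YALI0A00110g and YALI0D20196g are low in growth, and YALI0F26565g is higher in growth than at 32 h in every pair of group means.

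YALI0D06688g had the most negative mean difference, -7.05, and was close to absent at pH 3.5 in all 4 pairs. It had 0 to 22 reads in the 12 libraries of 32 h pH 3.5, against 591 to 16901 reads in the 11 libraries of 32 h pH 5.5. Its log2(FPKM + 1) values at pH 3.5 were 0.56, 0.63 and 0.23 on glycerol and 0.55, 0 and 0.47 on glucose in DSM-21175, against 8.98, 9.05 and 8.91 on glycerol and 8.35, 8.46 and 9.32 on glucose at pH 5.5. In growth phase it had 1003 to 2787 reads in every library, and its growth level was nearer to the 32 h pH 5.5 level than to the pH 3.5 level in all 4 pairs. In DSM-21175 the 32 h pH 5.5 means were 8.98 on glycerol and 8.71 on glucose, against 7.26 and 7.15 in growth. The pH 3.5 samples of 32 h were the only low group of this gene.

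YALI0A00110g, with a mean difference of -6.08, was low in growth as well as at pH 3.5. In DSM-3286 it had 0.14, 0.12 and 0.06 at pH 3.5 on glycerol, against 7.20, 7.10 and 7.62 at pH 5.5. On glucose in DSM-21175 it stayed higher at pH 3.5, at 5.03, 5.47 and 5.53, against 8.90, 9.02 and 5.72 at pH 5.5. The last of these is replicate 3, which stood apart, and that pair's difference of -2.54 includes it. Growth values were 0 to 1.71, from 0 to 99 reads, in all 12 growth libraries.

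YALI0D20196g reached the highest group mean of the 47, 11.9 in DSM-3286 on glycerol at 32 h pH 5.5. In that strain on glycerol it had 7.30, 7.57 and 7.11 at pH 3.5, against 11.89, 11.89 and 11.91 at pH 5.5. In DSM-21175 on glycerol it had 4.44, 4.73 and 4.38 at pH 3.5, against 7.32, 7.17 and 6.97 at pH 5.5. On glycerol the DSM-21175 level at pH 5.5 was thus about that of DSM-3286 at pH 3.5. On glucose YALI0D20196g had 4.09, 4.15 and 4.01 at pH 3.5 and 6.50, 6.39 and 5.07 at pH 5.5 in DSM-21175, and 7.93, 8.30 and 7.04 at pH 3.5 and 11.45 and 11.45 at pH 5.5 in DSM-3286. There every DSM-21175 library at either pH was below every DSM-3286 library. In growth it was low in both strains, between 1.81 and 2.51 over the 12 libraries.

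The other genes with the most negative mean differences were YALI0C09889g (-4.50), YALI0C15807g (-4.48), YALI0C00451g (-4.44), YALI0A01023g (-4.06), YALI0D15422g (-3.96), YALI0D00759g (-3.82), YALI0B19492g (-3.65) and YALI0C06908g (-3.61). They differed in how even the change was. YALI0C09889g had the widest range of the 4 differences, 5.93, with -7.85 in DSM-3286 and -1.92 in DSM-21175 on glycerol. In DSM-21175 on glycerol its replicates were uneven, at 2.32, 2.67 and 3.56 at pH 3.5 and 4.28, 6.79 and 3.24 at pH 5.5, and they overlapped. YALI0D00759g was even by comparison, with -4.64 and -3.34 in DSM-21175 and -4.38 and -2.94 in DSM-3286, on glycerol and glucose, and it had the highest mean level over the 35 libraries, 7.53. The median range of the 4 differences over the 47 was 1.77, and the narrowest was 0.138, for YALI0F04191g, whose 4 differences lay between -1.07 and -0.93.

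At the limit of the rule, the genes just inside had a least difference of -0.82 (YALI0E31603g), -0.82 (YALI0F15411g) and -0.81 (HOY1). Those just outside had -0.79 (YALI0A21395g), -0.78 (YALI0F28193g) and -0.77 (YALI0D01353g). A gene may sit at the limit through 1 pair only: YALI0E31603g had -5.26 and -5.48 in DSM-3286, on glycerol and glucose, but -1.29 and -0.82 in DSM-21175.

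**Figure D3:**
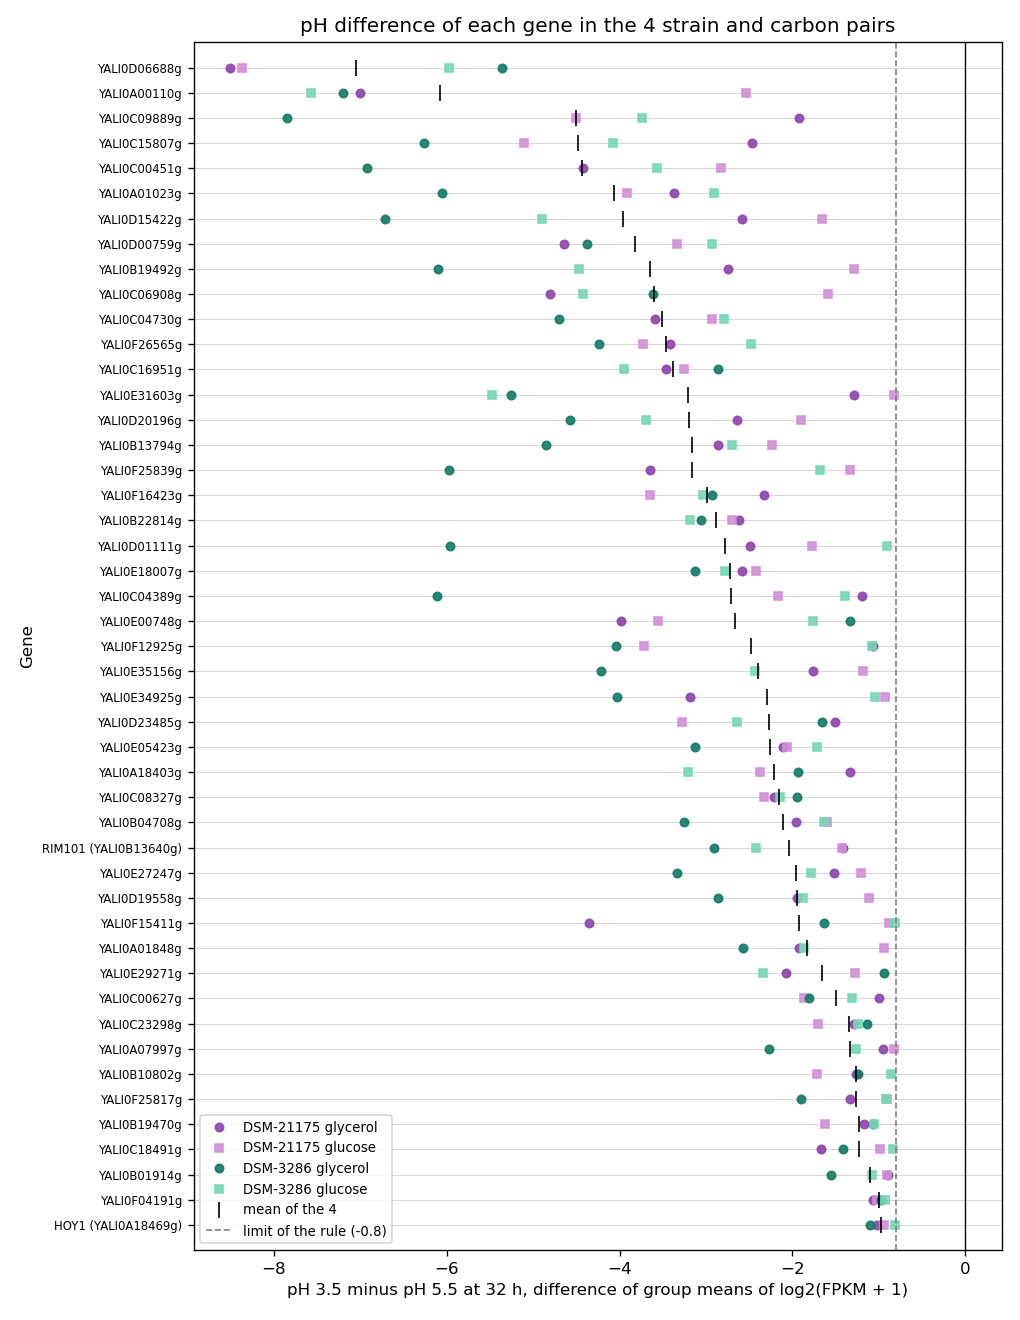
Difference of group means of log2(FPKM + 1), pH 3.5 minus pH 5.5 at 32 h, for each of the 47 genes in DSM-21175 on glycerol and glucose and in DSM-3286 on glycerol and glucose, with the mean of the 4 as a bar and the limit of -0.8 as a dashed line. All points lie left of the limit because the limit chose the genes. The points of a gene spread from 0.138 (YALI0F04191g) to 5.93 (YALI0C09889g), and those of DSM-3286 on glycerol are leftmost for 27 genes.

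Growth cultures, all at pH 5.5, gave another set of levels to place beside the 32 h values. Growth levels were nearer to the 32 h pH 5.5 level in all 4 pairs for 10 genes, nearer to the 32 h pH 3.5 level in all 4 for 21, and mixed for 16. The first group held YALI0D06688g and YALI0C00451g, and the second RIM101, HOY1, YALI0A00110g and YALI0D20196g. These counts compare group means and carry no test.

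In 12 of the 21 the growth level was even below the 32 h pH 3.5 level in all 4 pairs, and 5 genes had at most 20 reads in any growth library. One of these 5, YALI0B01914g, had 2405 to 9047 reads at 32 h pH 3.5 and 4560 to 11313 at 32 h pH 5.5, against 1 to 17 reads in growth. Another, YALI0B13794g, had 171 to 5696 reads at 32 h pH 3.5 and 4405 to 27332 at 32 h pH 5.5, against 0 to 9 in growth. For both, the step between 32 h and growth at pH 5.5 was larger than the step between the pH values at 32 h in every pair.

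The reverse order was seen in 4 genes, with growth levels above the 32 h pH 5.5 level in all 4 pairs: YALI0F26565g, YALI0D19558g, YALI0F15411g and YALI0B10802g. On glucose in DSM-21175 YALI0F26565g had 3.31, 2.82 and 3.92 at 32 h pH 3.5 and 7.49, 8.01 and 5.73 at 32 h pH 5.5, against 12.18, 12.65 and 7.80 in growth. Its growth values on glycerol in that strain were 11.55, 9.08 and 10.31. In DSM-3286 the growth values were 6.31, 6.92 and 5.61 on glycerol and 10.44, 10.70 and 10.73 on glucose, so that the growth replicates were close only on glucose in DSM-3286.

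The growth libraries were not used to choose the genes, and glycerol against glucose in them could be tested. With edgeR's quasi-likelihood test (adjusted p under 0.05) 29 of the 47 were lower on glycerol, 3 were higher and 15 were not called. Over all genes tested 30.7% were lower and 31.8% higher. The median log2 fold change of the 47 was -1.28, against -0.01 over all genes tested, and 25 of the 29 had at least a 2-fold difference. All 29 were lower on glycerol in both strains. Glycerol cultures were sampled at 8 h and glucose cultures at 12 h, so that carbon source and hour cannot be told apart.

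YALI0B19492g had the largest difference, a log2 fold change of -7.82 ± 0.34 (SE, adjusted p = 5.8e-16). It had 3.12, 2.76 and 4.48 on glycerol, against 9.65, 9.53 and 8.97 on glucose in DSM-21175. In DSM-3286 it had 0.59, 0.59 and 0.11 on glycerol, from 4 to 12 reads, against 8.12, 8.15 and 8.11 on glucose. Glycerol and glucose libraries did not overlap in either strain.

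YALI0D15422g differed by -5.71 ± 0.45 (SE, adjusted p = 3.73e-11), with 0.70, 0.79 and 0.22 on glycerol and 3.52, 3.62 and 3.09 on glucose in DSM-21175, and 0.24, 0.22 and 0.12 on glycerol and 4.37, 4.45 and 4.68 on glucose in DSM-3286. YALI0C06908g differed by -5.40 ± 0.47 (SE, adjusted p = 3.08e-10), with growth values of 0.37 to 2.14 on glycerol and 4.97 to 6.96 on glucose. The fitted -5.58 ± 1.05 (SE, adjusted p = 6.02e-05) of YALI0C04730g rests on 0, 0 and 2 reads on glycerol in DSM-3286, against 419 to 557 reads on glucose, so that its size depends on the fit. In DSM-21175 that gene had 4 to 10 reads on glycerol and 22 to 33 on glucose.

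The 3 genes higher on glycerol in growth changed less. YALI0E00748g had 6.73, 6.45 and 6.97 on glycerol and 5.09, 5.73 and 4.37 on glucose in DSM-21175, and 5.91, 5.64 and 5.78 on glycerol and 4.91, 4.79 and 4.65 on glucose in DSM-3286, a log2 fold change of 1.37 ± 0.18 (SE, adjusted p = 3.42e-07). YALI0B10802g and YALI0F25817g were higher by 0.50 ± 0.07 (SE, adjusted p = 1.62e-07) and 0.46 ± 0.05 (SE, adjusted p = 5.3e-09). The direction held in both strains for all 3. The count of genes higher on glycerol was 5 without the 5 libraries that stood apart.

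RIM101 and HOY1 were both lower on glycerol in growth. The log2 fold change of RIM101 was -1.23 ± 0.09 (SE, adjusted p = 7.88e-13) and that of HOY1 -1.35 ± 0.14 (SE, adjusted p = 7.76e-10). Neither YALI0D06688g (0.13 ± 0.17, adjusted p = 0.51) nor YALI0D20196g (0.41 ± 0.20, adjusted p = 0.079) was called by the same test.

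**Figure D4:**
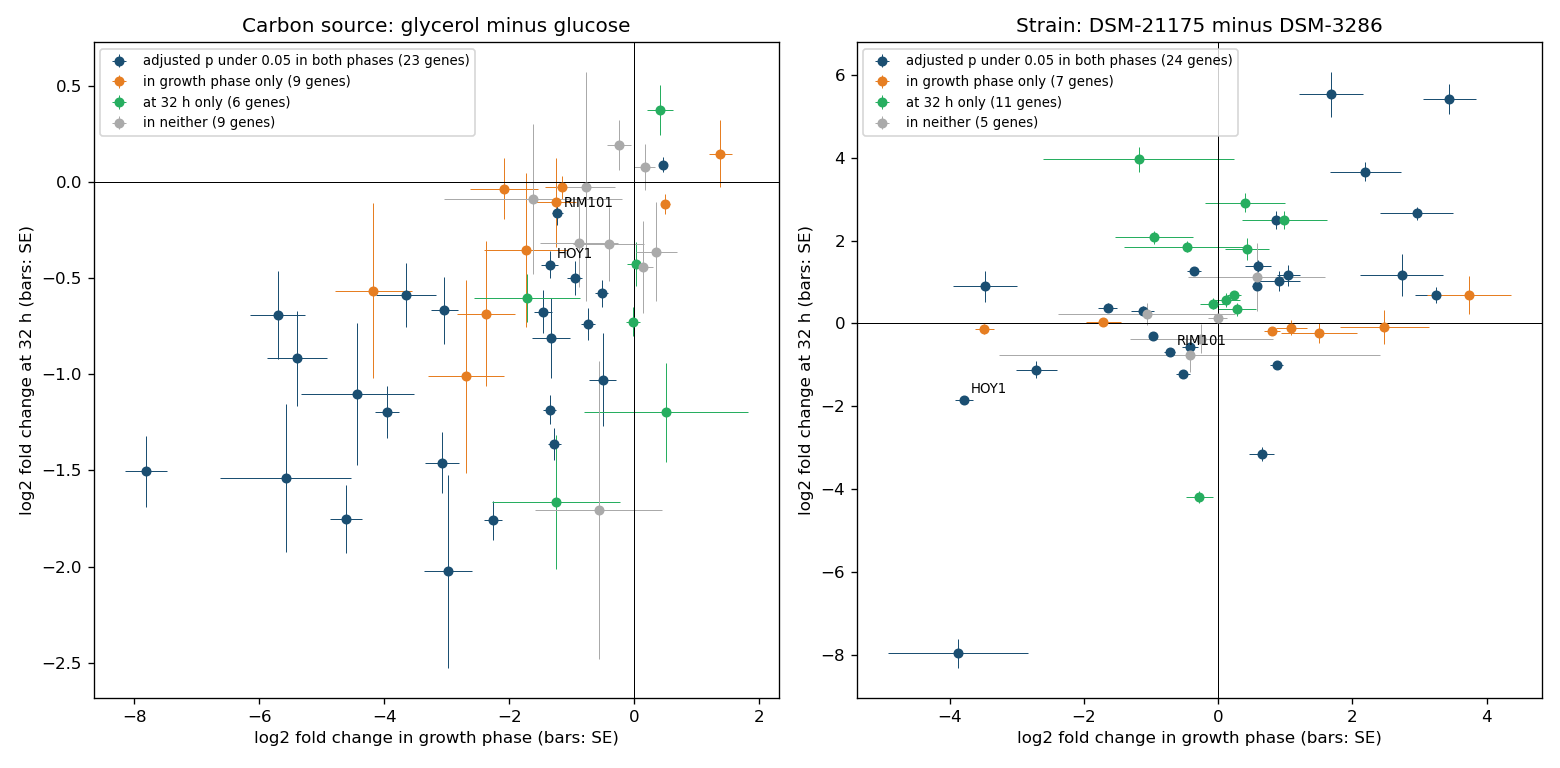
log2 fold changes of the 47 genes from edgeR in growth phase (horizontal) and at 32 h averaged over both pH values (vertical), for glycerol minus glucose (left) and DSM-21175 minus DSM-3286 (right), with bars for the SE and colours for the phases in which the adjusted p was under 0.05. Most points of the carbon panel lie below and left of 0, while those of the strain panel lie on both sides, with HOY1 at -3.78 in growth and -1.84 at 32 h.

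At 32 h glycerol was set against glucose with pH 3.5 and pH 5.5 weighted equally, a contrast that differs from the pH contrast but uses the same libraries. There 27 of the 47 were lower on glycerol, 2 were higher and 18 were not called, against 21.0% lower and 22.2% higher over all genes tested. The median log2 fold change was -0.60, against 0.01 over all genes. Of the genes lower on glycerol, 22 were so in both phases, 7 in growth only and 5 at 32 h only, counted by threshold and with no test of the difference between phases. Over all genes tested 30.7% were lower in growth and 21.0% at 32 h. Joint counts over all genes are not given here, so the joint counts are a description only.

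The carbon difference at 32 h was not the same at each pH. At pH 3.5 the median over the 47 was -0.62 in DSM-21175 and -1.04 in DSM-3286, and at pH 5.5 it was -0.44 in DSM-21175 and 0.003 in DSM-3286. At pH 3.5 the fold change was negative for 36 genes in DSM-21175 and 43 in DSM-3286, and at pH 5.5 for 33 in DSM-21175 and 23 in DSM-3286. These values split the libraries by pH, which chose the genes, and they were not tested.

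YALI0C00451g was among the most changed by carbon source at 32 h, with a log2 fold change of -1.76 ± 0.10 (SE, adjusted p = 1.02e-13). At pH 3.5 it had 4.09, 4.01 and 3.09 on glycerol and 5.61, 5.80 and 5.93 on glucose in DSM-21175, and 2.04, 2.13 and 1.89 on glycerol and 5.94, 5.80 and 5.64 on glucose in DSM-3286. At pH 5.5 it had 8.29, 8.35 and 7.81 on glycerol and 8.63, 8.72 and 8.48 on glucose in DSM-21175, and 8.93, 8.93 and 8.98 on glycerol and 9.49 and 9.23 on glucose in DSM-3286. The glycerol libraries were lower at both pH values, and the gap was wider at pH 3.5.

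YALI0E29271g (-2.02 ± 0.50, adjusted p = 0.00217), YALI0A01848g (-1.46 ± 0.16, adjusted p = 2.33e-08) and YALI0B04708g (-1.36 ± 0.08, adjusted p = 3.37e-13) were the others named by change, each lower on glycerol in both strains at both pH values by edgeR's fit (log2 fold change ± SE). The 2 higher genes were YALI0D20196g (0.38 ± 0.13, adjusted p = 0.0213) and YALI0F25817g (0.09 ± 0.04, adjusted p = 0.0494). Both averages mix signs. In DSM-21175 and DSM-3286 YALI0F25817g had -0.24 and -0.27 at pH 3.5, against 0.20 and 0.68 at pH 5.5. YALI0D20196g had 0.47 and -0.47 at pH 3.5, against 1.06 and 0.44 at pH 5.5. The count of 2 fell to 1, with YALI0F25817g lost, when any single 32 h library was left out, except DSM-21175 glycerol pH 3.5 replicate 2, DSM-21175 glucose pH 5.5 replicate 1, DSM-3286 glycerol pH 3.5 replicate 1 and DSM-3286 glucose pH 3.5 replicate 3. With the 32 h libraries fitted alone, the adjusted p of YALI0D20196g was 0.0556 and the count was 0.

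HOY1 fell by 0.43 ± 0.07 (SE, log2, adjusted p = 1.53e-05) on glycerol at 32 h. RIM101 had -0.16 ± 0.06 (SE, log2, adjusted p = 0.0342), and its call was lost when any of 9 single libraries was left out, with adjusted p from 0.0506 to 0.0681. These were glycerol pH 3.5 replicate 3, glycerol pH 5.5 replicate 2, glucose pH 3.5 replicate 2 and glucose pH 5.5 replicate 3 of DSM-21175, and glycerol pH 3.5 replicate 2, glucose pH 3.5 replicates 1 and 2 and glucose pH 5.5 replicates 1 and 3 of DSM-3286.

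Between strains in growth phase, 18 of the 47 were higher in DSM-21175, 13 were lower and 16 were not called by edgeR's test, against 34.3% higher and 30.5% lower over all genes tested. The median log2 fold change was 0.23, against 0.03 over all genes. Both shares are near those of all genes. HOY1 was lower in DSM-21175, by 3.78 ± 0.13 on the log2 scale (SE, adjusted p = 8.59e-20), the growth libraries having 0.58 to 2.17 in DSM-21175 and 3.85 to 5.11 in DSM-3286. RIM101 fell by 0.72 ± 0.09 (SE, log2, adjusted p = 2.88e-08) in DSM-21175 in growth.

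Among genes with a mean of at least 3 log2 CPM, YALI0E29271g led the higher ones with a log2 fold change of 3.44 ± 0.39 (SE, adjusted p = 3.39e-08), with 4.61, 3.82 and 2.95 on glycerol and 6.53, 6.34 and 5.62 on glucose in DSM-21175, against 0.66, 0.91 and 0.90 on glycerol and 3.63, 3.52 and 3.49 on glucose in DSM-3286. YALI0B19492g (3.24 ± 0.32), YALI0F16423g (2.95 ± 0.54) and YALI0F26565g (2.73 ± 0.61) followed, with adjusted p between 1.87e-09 and 0.000406. Below that level YALI0B19470g was also called, at 3.73 ± 0.63 (SE, adjusted p = 1.06e-05). It had 1 to 5 reads on glycerol in DSM-3286, so that the size depends on the fit. YALI0F16423g had 0 reads in some of the DSM-3286 glycerol growth libraries, so that its fold change depends on the fit. On glucose YALI0F26565g had 12.18, 12.65 and 7.80 in DSM-21175, against 10.44, 10.70 and 10.73 in DSM-3286. The value of 7.80 is from replicate 3, which stood apart. Beside HOY1 the most negative calls were YALI0F12925g (-3.88 ± 1.04, from 0 to 93 reads in growth), YALI0E31603g (-3.48 ± 0.15) and YALI0D01111g (-3.48 ± 0.48). On glucose in growth YALI0E31603g had 3.56, 3.58 and 3.03 in DSM-21175, against 7.24, 7.24 and 7.14 in DSM-3286.

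At 32 h, with carbon sources and pH values weighted equally, 25 genes were higher in DSM-21175, 10 were lower and 12 were not called. Over all genes tested 43.0% were higher and 37.6% lower. This strain contrast differs from the pH contrast but uses the same libraries, which chose the genes. The median log2 fold change was 0.47, against 0.04. It was not the same at each pH. At pH 3.5 the median over the 47 was 1.24 on glycerol and 0.575 on glucose, and at pH 5.5 it was 0.01 and 0.39. The fold change was positive for 37 and 32 genes at pH 3.5, and for 24 and 26 at pH 5.5. These values split the libraries by pH, which chose the genes, and they were not tested. The averaged strain call was the same in both phases for 11 higher and 7 lower genes. It was opposite for 6 genes, 4 of which were lower in DSM-21175 in growth and higher in it at 32 h. Joint counts over all genes are not given here. Since most genes tested were called in each phase, these counts cannot be read as a trait of the 47.

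YALI0F12925g had the most negative strain log2 fold change at 32 h, -7.96 ± 0.36 (SE, edgeR adjusted p = 2.25e-16). In DSM-21175 it had 4 to 36 reads at pH 3.5, so that the size there depends on the fit. On glycerol it had 0.42, 1.25 and 0.31 at pH 3.5 and 1.24, 3.01 and 0.95 at pH 5.5 in DSM-21175, against 6.67, 7.1 and 7.0 at pH 3.5 and 10.98, 10.98 and 10.93 at pH 5.5 in DSM-3286. In DSM-3286 its pH 3.5 libraries were higher than all of its DSM-21175 libraries at either pH. YALI0D20196g was lower in DSM-21175 by 4.20 ± 0.14 on the log2 scale (SE, adjusted p = 7.45e-20) at 32 h, whereas in growth it had -0.28 ± 0.20 (adjusted p = 0.235). YALI0E00748g fell by 3.15 ± 0.16 (SE, log2, adjusted p = 7.52e-16), HOY1 by 1.84 ± 0.07 (adjusted p = 1.52e-19) and RIM101 by 0.69 ± 0.06 (adjusted p = 3.53e-11). Most of these averages cover unlike values at each pH. On glycerol and glucose YALI0D20196g had -2.85 and -3.79 at pH 3.5, against -4.76 and -5.38 at pH 5.5. YALI0F12925g had -7.55 and -10.15 at pH 3.5, against -9.33 and -4.81 at pH 5.5. HOY1 was more even, with -2.03 and -1.66 at pH 3.5, against -2.11 and -1.57 at pH 5.5. On glycerol and glucose RIM101 had 0.20 and -0.29 at pH 3.5, against -1.33 and -1.35 at pH 5.5. YALI0E00748g had -5.10 and -4.63 at pH 3.5, from 10 to 34 reads in DSM-21175, against -1.11 and -1.78 at pH 5.5.

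YALI0F15411g was the gene most raised in DSM-21175 at 32 h, by 5.52 ± 0.54 on the log2 scale (SE, adjusted p = 9.69e-10). On glycerol it had 2.72, 1.46 and 4.13 at pH 3.5 and 7.47, 7.60 and 6.31 at pH 5.5 in DSM-21175, against 0.10, 0.13 and 0.50 at pH 3.5 and 2.56, 1.04 and 2.03 at pH 5.5 in DSM-3286. YALI0E29271g (5.42 ± 0.36), YALI0A00110g (3.96 ± 0.30) and YALI0E35156g (3.66 ± 0.22) were next, with adjusted p between 6.54e-14 and 8.08e-12. For YALI0A00110g the strains differed most at pH 3.5 on glucose, where the 3 libraries of DSM-21175 lay above 5 and those of DSM-3286 below 0.3. On glycerol and glucose its fold changes were 5.30 and 8.19 at pH 3.5, against 1.69 and 0.66 at pH 5.5. In DSM-3286 it had 2 to 10 reads at pH 3.5, so that the size there depends on the fit.

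The growth carbon difference itself differed between strains for 10 of the 47 by the interaction test. It was higher (less negative or more positive) in DSM-21175 for 9 and lower for 1, where 6.16% of all genes tested were higher and 3.66% lower. YALI0B19492g led, with a log2 difference of -5.83 on glycerol in DSM-21175 and -9.80 in DSM-3286, an interaction of 3.96 ± 0.65 (SE, adjusted p = 0.00012). YALI0D19558g was positive in DSM-21175 (1.46) and negative in DSM-3286 (-0.76). The count of 9 became 5 without DSM-3286 glycerol growth replicate 2, and 5 without replicate 3 of that group. It was 14 without the 5 libraries that stood apart. The calls of YALI0A01848g, YALI0C04389g, YALI0D19558g and YALI0E31603g were each lost when any of several single growth libraries was left out, and that of YALI0C04389g also in 3 other fits.

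The 47 genes were spread over all 6 chromosomes that the locus tags name, with 6 on A, 8 on B, 11 on C, 7 on D, 8 on E and 7 on F. Their median gene length was 1596 bases, against 1245 over all coding tags, and ran from 507 to 5637. For 1 of them, YALI0E35156g, the deposited effective length was below the full length, as it was for 947 of all coding tags. Of the 47, 46 were found by gene ID in the RefSeq table of assembly ASM176148v1. In its gene order 2 pairs were direct neighbours, YALI0B19470g with YALI0B19492g and YALI0F25817g with YALI0F25839g.

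By carbon source in growth, the neighbours moved in the same direction in one pair and not in the other. In growth YALI0B19470g had a carbon log2 fold change of -4.18 ± 0.62 (SE, edgeR adjusted p = 1.52e-06), beside -7.82 for YALI0B19492g. In DSM-3286 YALI0B19470g had 1, 1 and 5 reads on glycerol and 98, 21 and 26 on glucose, so that its size depends on the fit. On glucose in DSM-21175 it had 674, 869 and 104 reads, the last in replicate 3, which stood apart. YALI0F25839g was lower on glycerol by 3.95 ± 0.19 (SE, adjusted p = 7.83e-16), while YALI0F25817g was higher, at 0.46. On glycerol YALI0F25839g had 1.35, 2.13 and 2.34 in DSM-21175 and 1.97, 1.91 and 1.69 in DSM-3286, against 6.0, 5.9 and 6.19 on glucose in DSM-21175 and 5.04, 4.84 and 5.19 in DSM-3286. YALI0F25817g lay between 5.27 and 6.75 in all 12 growth libraries.

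Among the 71 genes to which the deposited tables give a symbol, RIM101 and HOY1 were the only ones in the set. By the same edgeR test 18 of the 71 (25.4%) were higher and 44 (62.0%) lower at pH 3.5, with a median log2 fold change of -0.21. Over all genes tested 34.2% were higher and 34.3% lower, with a median of -0.006.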

How the data were processed

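Members and lists were chosen with earlier results of these data known. The authors deposited raw read counts per gene and log2 expression values. Reads were aligned with BWA 0.7.12-r1039 and counted with featureCounts 1.5.1, and edgeR is also named, per the submitters' processing notes; the counting's strand setting and the genome build are not stated in what was used here. The deposited log2 values matched log2(FPKM + 1) from the counts and deposited effective lengths within 0.02 for 99.9% of values. Their header has 1 extra empty cell, and names were read in order after it. Symbols in the log2 table were paired with locus tags by equal values. The 35 libraries totalled 6.7 to 25.7 M counts. Replicates of a group differed by more than sampling noise in all 34 pairs (chi-square per gene of at least 3.39).

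Counts were fitted with edgeR 4.0.16 (R 4.3.3) over 12 groups with TMM scaling, filterByExpr (6537 genes, all 47 members kept) and the quasi-likelihood test, with 23 residual degrees of freedom. Adjusted p-values (Benjamini-Hochberg) cover all 6537 genes, and calls are at 0.05. The script was tested on simulated counts. DESeq2 1.42.0 and limma 3.58.1 were alternatives. Values are log2(FPKM + 1) per library unless called fold changes, which come from edgeR; the added 1 shrinks differences of low genes. Named genes are those with a symbol, the 10 with the most negative mean pH difference, those at the limit, up to 4 per direction with the largest called change in each test with a mean of at least 3 log2 CPM and 1 sign in every stratum, and the highest in level. Genes given as examples of growth levels, overlaps or neighbours were chosen after their values were seen.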

Additional observations from a re-analysis of the deposited data

Results flagged for a closer look

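The carbon difference in growth phase (glycerol minus glucose, log2) differed between DSM-21175 and DSM-3286 for 10 of the 47 genes, by the interaction test in edgeR with adjusted p under 0.05. In both strains the difference was negative, and smaller in size in DSM-21175, for YALI0C04389g (1.43, adjusted p = 0.0456), YALI0B04708g (1.24, adjusted p = 0.000118), YALI0A07997g (0.96, adjusted p = 0.00877), YALI0E31603g (0.93, adjusted p = 0.0325) and YALI0C16951g (0.86, adjusted p = 0.00301). Larger interactions were found for YALI0B19492g (3.96, adjusted p = 0.00012), YALI0A01848g (1.96, adjusted p = 0.0269) and YALI0C00451g (1.90, adjusted p = 1.35e-05), also with negative differences in both strains. In growth YALI0C00451g had 7.33, 7.47 and 7.83 on glycerol and 8.67, 8.68 and 9.31 on glucose in DSM-21175, and 6.68, 6.49 and 6.56 on glycerol and 9.84, 9.89 and 9.83 on glucose in DSM-3286. YALI0D19558g (2.21, adjusted p = 0.0327) was 1.46 in DSM-21175 and -0.76 in DSM-3286. YALI0B10802g (-0.71, adjusted p = 0.000387) was 0.14 in DSM-21175 and 0.85 in DSM-3286. Leaving out 1 growth library at a time, 4 of these calls were lost in at least 4 of 12 fits: YALI0C04389g in 9 (adjusted p 0.0625 to 0.287), YALI0D19558g in 8 (0.0543 to 0.0696), YALI0E31603g in 7 (0.0543 to 0.144) and YALI0A01848g in 4 (0.0503 to 0.095). The call of YALI0C04389g was also lost with the replicate block (adjusted p = 0.0602), with growth libraries fitted alone (0.149) and with limma (0.0926), and that of YALI0E31603g with growth libraries fitted alone (0.0677). The call of YALI0A01848g was lost without replicate 2 or replicate 3 of the glycerol growth group of either strain. The call of YALI0C04389g was kept only without DSM-21175 glycerol replicate 2 or 3 or DSM-3286 glycerol replicate 1. The call of YALI0D19558g was kept only without DSM-21175 glycerol replicate 1 or 2, DSM-21175 glucose replicate 3 or DSM-3286 glucose replicate 3. The call of YALI0E31603g was kept only without DSM-21175 glycerol replicate 2, DSM-21175 glucose replicate 1 or 2, DSM-3286 glycerol replicate 1 or DSM-3286 glucose replicate 3. The other 6 calls were kept in all 12 fits.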

How the results depend on the processing

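All 47 genes were lower at pH 3.5 in every alternative fit except that requiring a 2-fold difference, which kept 46. This follows from the choice of the genes by the same libraries and is no support for it. The rule found 34 genes at a limit of -1, 81 at -0.6, 78 with edgeR fold changes, 44 with group medians, and 46 to 50 with 1 library left out. In the growth carbon comparison the genes higher on glycerol numbered 5 without the 5 libraries that stood apart, 5 with growth libraries fitted alone and 1 with a 2-fold limit. The 2-fold limit also left 11 higher and 8 lower between strains in growth, 13 lower on glycerol at 32 h and 16 higher in DSM-21175 at 32 h. Genes higher on glycerol at 32 h numbered 1 with RLE scaling, without the filter, with DESeq2 or with limma, and 0 with 32 h libraries alone or a 2-fold limit. The interaction gave 14 higher and 3 lower genes without the 5 libraries, 2 lower with DESeq2 or limma, and 0 lower with a 2-fold limit. With 1 library left out, the genes lower and higher on glycerol numbered 27 to 30 and 3 to 3 in growth and 26 to 30 and 1 to 2 at 32 h. Those higher and lower in DSM-21175 numbered 16 to 19 and 13 to 13 in growth and 21 to 24 and 10 to 13 at 32 h, and the interaction gave 5 to 8 and 1 to 2. The causes were not tested. The replicate numbers did not pair the samples of the study as a whole: of 187 same-numbered pairs of libraries 20 had a correlation of deviations over 0.1, with a median of 0.0011. Within DSM-21175 all 3 numbers exceeded 0.1 for glucose at 32 h pH 5.5 with glucose in growth (0.344 to 0.446) and with glycerol at 32 h pH 5.5 (0.166 to 0.351). For glycerol at 32 h pH 3.5 all 3 were negative with glycerol at 32 h pH 5.5 (-0.493 to -0.225). They were also negative with glucose at 32 h pH 5.5 (-0.432 to -0.237) and with glucose in growth (-0.340 to -0.154). Replicate 3 of each of these groups is among the 5 libraries that stood apart. With the replicate block, genes higher on glycerol numbered 1 at 32 h and 4 in growth, and those lower on glycerol in growth 28; the interaction call of YALI0C04389g was lost (adjusted p = 0.0602) and the growth carbon call of YALI0D20196g gained (0.0364). No value reversed in direction. Low read numbers limit fold changes of genes with few reads in growth.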

Other observations

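The locus tags number genes along each chromosome, and 10 of the 47 genes (21.3%) lay among the first or last 50 coding tags of a chromosome, against 600 of 6448 coding tags (9.3%). The window of 50 was chosen after the tags had been seen, and the difference was not tested. The 10 were YALI0A00110g, YALI0A01023g, YALI0B22814g, YALI0C00451g, YALI0C00627g, YALI0D00759g, YALI0D01111g, YALI0E00748g, YALI0E34925g and YALI0E35156g. YALI0A00110g was the first coding tag of chromosome A, and YALI0E35156g the third from the end of chromosome E. By the mean pH difference these ranged from -6.08 (YALI0A00110g) to -1.50 (YALI0C00627g).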
